A study of Mus musculus with 6 samples.

Results

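EIF5A, the enzymes that modify it and its close paralogue are encoded by 4 genes, Eif5a, Eif5a2, Dhps and Dohh. They were taken by exact symbol from a table of ribosome footprint density, and all 4 were found among its 22770 gene rows. The libraries came from mouse testis round spermatids, the haploid cells that follow meiosis. There were 3 libraries of a genotype labelled Eif5a SKO and 3 wild-type libraries. The targeted gene of the SKO group is Eif5a. The labels do not spell out SKO. They name no allele, no driver of a Cre, no removed exon, no strain and no age of the mice. The series design text, written for a chromatin accessibility assay, gives 3 mice per group with spermatids collected by sorting. No label ties a footprint library to a mouse, so p-values measure the spread between these libraries.

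EIF5A is a small translation factor that binds the ribosome near the exit site and helps peptide bonds form where they are slow, as at runs of proline, and when the finished chain is released. It works only after 1 of its lysines has been turned into hypusine, an amino acid known from no other protein family. Deoxyhypusine synthase, encoded by Dhps, moves the aminobutyl part of the polyamine spermidine onto that lysine. Deoxyhypusine hydroxylase, an iron enzyme encoded by Dohh, then completes hypusine. EIF5A2 keeps the same lysine, and in humans its mRNA is known from testis and brain.

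Each value is an FPKM, the authors' footprint density scaled to transcript length and to the mapped fragments of the library. No source used here says whether the length was that of the coding sequence or of the whole transcript, so levels are compared between genes only on this per-length scale. Footprint density depends on mRNA amount, on how often it is translated and on how fast ribosomes move, and matched RNA was not analysed here. In bulk libraries fewer cells that translate a gene and fewer footprints per cell cannot be told apart. Absolute depth is unknown. From the steps between low values, SKO replicates 1, 2 and 3 had relative depths of 1, 0.503 and 0.772, and wild-type replicates 1, 2 and 3 had 0.787, 0.761 and 0.631. Protein-coding rows held 18.3% to 33.1% of the summed FPKM in SKO libraries and 22.5% to 28.5% in wild-type libraries. All 12 round spermatid markers that were listed, among them the acrosome gene Acrv1 and the flagellar channel gene Catsper3, averaged at least 1 FPKM. Their summed density was 911 to 1875 FPKM in SKO libraries and 670 to 1173 FPKM in wild-type libraries.

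Eif5a carried few footprints in the SKO libraries. The gene lies on GRCm38 chromosome 11 from 69916712 to 69921958 (identifier 276770). Its density was 1.84, 1.93 and 2.99 FPKM in SKO replicates 1, 2 and 3, against 34.2, 48.8 and 61.9 FPKM in wild-type replicates 1, 2 and 3. The groups lay far apart, and the highest SKO library held 6.20% of the wild-type mean. The means were 2.25 ± 0.642 FPKM in SKO and 48.3 ± 13.9 FPKM in wild type (SD, n = 3 each). Eif5a fell by 3.90 on the log2(FPKM + 1) scale (SE 0.37, 95% interval -4.74 to -3.06, limma adjusted p = 0.00641). Of the 3 members in the test 1 was called lower, Eif5a, the gene targeted in the SKO group, and 0 higher. Dhps and Dohh were not called. Of the 15578 tested rows 0.0193% were called lower and 0.109% higher. Eif5a was also the only member of the 3 whose groups did not overlap, which held for 15.7% of all tested rows.

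The fall can also be read as a place among genes. In SKO replicates 1, 2 and 3, 40.1%, 37.1% and 50.3% of protein-coding rows had a lower density than Eif5a. In the wild-type libraries the share ran from 94.97% to 95.44%, while the FPKM of Eif5a there differed by up to 1.81 times. Of 11157 tested protein-coding rows, 1 had a lower log2 fold change, Lrch1, which was picked out after its values were seen. Lrch1 averaged 1.11 FPKM in SKO and 64.4 FPKM in wild type and did not pass the test (limma adjusted p = 0.0853).

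**Figure D1:**
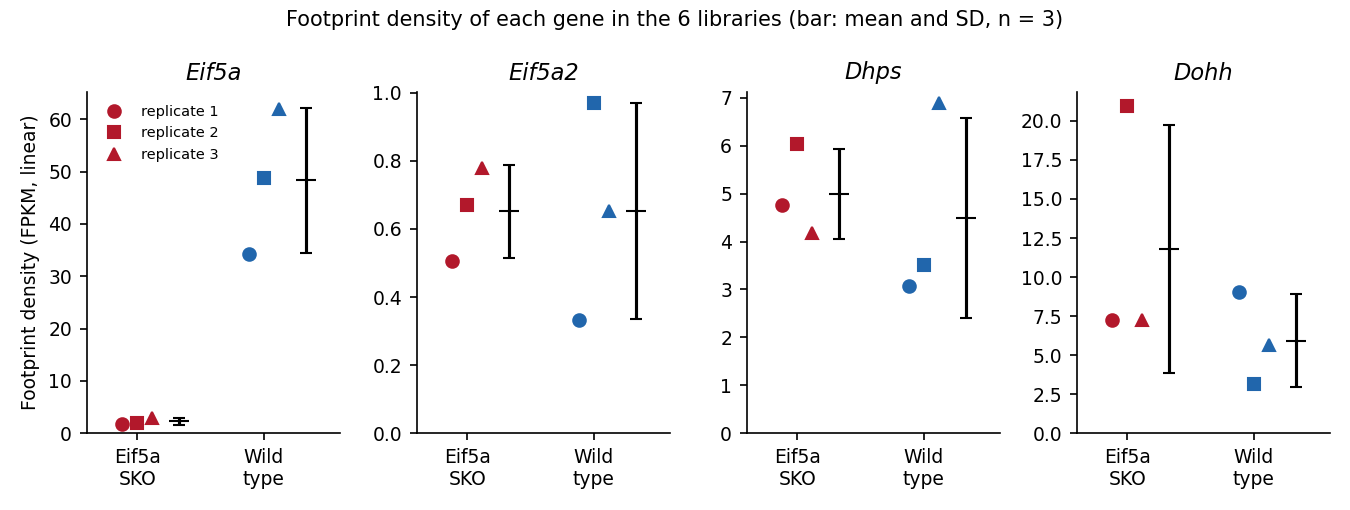
Footprint density in FPKM (vertical axes, linear, each gene with its own range) of Eif5a, Eif5a2, Dhps and Dohh in Eif5a SKO and wild-type libraries; symbols are replicates 1, 2 and 3, and the black bar is the mean with its SD (n = 3). The 3 SKO libraries lie between 1.84 and 2.99 FPKM for Eif5a, under all wild-type libraries, while the groups overlap for the other 3 genes.

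Setting Eif5a against other translation genes of the same library removes the scaling of that library. The elongation list holds the factors that bring tRNAs and move the ribosome, those that release the chain, and those that rescue stalled ribosomes. Eif5a equalled 0.573%, 0.284% and 0.528% of the summed density of its 12 measured members in SKO replicates 1, 2 and 3, against 11.4%, 12.7% and 10.9% in wild-type replicates 1, 2 and 3. The wild-type libraries were close to each other on this measure (11.7% ± 0.969, SD, n = 3), and the SKO libraries averaged 0.461% ± 0.155 (SD, n = 3). With 3 against 3 libraries a two-sided exact permutation test cannot go below p = 0.1, the value it gave. Eef1a1 supplied much of that sum, and without it Eif5a made up 1.09% ± 0.331 in SKO and 21.9% ± 2.93 in wild type (SD, n = 3 each). Against the summed round spermatid markers Eif5a made up 0.177% ± 0.0655 in SKO and 5.39% ± 0.345 in wild type (SD, n = 3 each). These ratios were chosen after the values were seen.

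In wild type Eif5a ranked 4 of 13 genes when set among the elongation list by mean density. Its neighbours there were Gspt1, the release factor eRF3a gene, at 51.8 ± 21.3 FPKM and Eef2, the translocation factor gene, at 40.9 ± 19.0 FPKM (SD, n = 3), neither beyond the spread from Eif5a. In SKO it ranked 11, above Gspt2 and Pelo. Gspt2, at 1.42 to 2.33 FPKM in SKO libraries, overlapped Eif5a. The ribosome recycling gene Abce1, at 3.47 to 4.84 FPKM, lay above Eif5a in all SKO libraries.

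**Figure D2:**
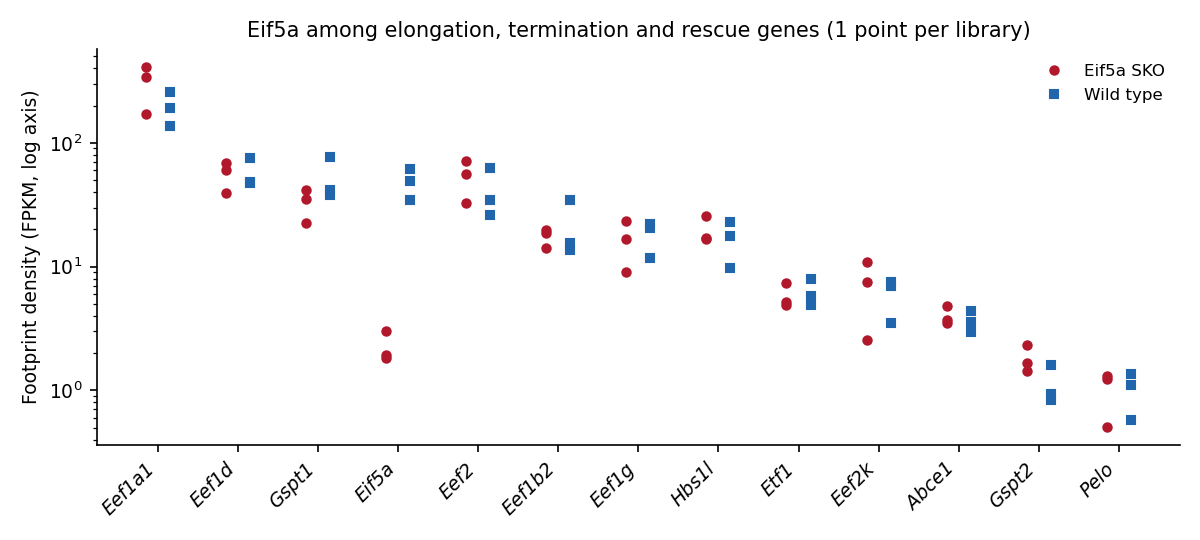
Footprint density in FPKM (log axis) of Eif5a and 12 elongation, termination and rescue genes, ordered by wild-type mean, with 1 point per library (circles Eif5a SKO, squares wild type). Eif5a ranks 4 of 13 in wild type and 11 of 13 in SKO, and the groups overlap for each of the other 12 genes.

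Some Eif5a footprints remained in each SKO library, and some markers of somatic testis cells differed between the genotypes. The summed density of the 7 measured Leydig cell markers was 76.1, 61.2 and 118 FPKM in SKO replicates 1, 2 and 3, against 18.1, 13.6 and 18.6 FPKM in wild-type replicates 1, 2 and 3. Of these Leydig markers Star and Lhcgr overlapped between the groups. The 5 measured Sertoli cell markers summed to 49.7 to 74.3 FPKM in SKO libraries and 12.1 to 19.2 FPKM in wild-type libraries. Clu and Ctsl supplied most of that sum, with means of 27.7 and 28.0 FPKM in SKO and 5.57 and 7.44 FPKM in wild type. Aard was also higher in every SKO library. Inha and Trf overlapped, and the mean of Trf was lower in SKO, at 1.29 against 1.87 FPKM. The 4 smooth muscle and matrix genes Acta2, Myh11, Cnn1 and Dcn summed to 25.8 to 39.2 FPKM in SKO and 4.54 to 6.19 FPKM in wild type. The macrophage genes Cd68 and Adgre1 summed to 0.837 to 3.48 FPKM in SKO and 0.638 to 5.98 FPKM in wild type, the endothelial markers Pecam1 and Cdh5 were not analysed here, and the 4 globin genes summed to 15.2 to 42.0 FPKM in SKO and 50.4 to 110.0 FPKM in wild type. Spermatocyte markers, 8 of 8 measured, summed to 80.0 to 130 FPKM in SKO and 68.6 to 118 FPKM in wild type. Among spermatogonial markers Ddx4, which later germ cells also use, had 87.1 to 191 FPKM in SKO and 111 to 205 FPKM in wild type. The other 4 measured ones, Kit, Dmrt1, Uchl1 and Gfra1, each overlapped between the groups. Their sum was 18.0, 12.9 and 19.6 FPKM in SKO replicates 1, 2 and 3, against 12.6, 12.6 and 11.7 FPKM in wild-type replicates 1, 2 and 3. Every SKO sum lay above the wild-type ones, in SKO replicate 2 by little. Uchl1 weighed most in this, with 14.1, 5.08 and 7.46 FPKM in SKO replicates 1, 2 and 3. It had 5.40, 4.93 and 4.55 FPKM in wild-type replicates 1, 2 and 3. In SKO replicate 1 Kit, at 1.75 FPKM, and Gfra1, at 0.958 FPKM, lay below all wild-type libraries, and Dmrt1 lay inside their range. With Ddx4 included the spermatogonial sums overlapped, at 105 to 204 FPKM in SKO and 123 to 217 FPKM in wild type. Of the listed markers 3 of 8 spermatogonial, 6 of 11 Sertoli, 2 of 9 Leydig, 4 of 10 peritubular, endothelial and macrophage and 2 of 6 blood genes were not analysed here, the Sertoli genes Sox9 and Wt1 among them. Of the tested markers Dcn, a connective tissue gene, rose with the deposited values (limma adjusted p = 0.0470). Of all tested rows 0.109% were called higher. Under TMM-type scaling the Sertoli gene Clu and Acta2 rose as well (limma adjusted p = 0.0410 each). There 119 of 15578 tested rows were called higher. With the deposited values neither Clu nor Acta2 passed (limma adjusted p = 0.0853 and 0.0775). The part of these cells in the remaining Eif5a footprints was not tested.

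The pseudogene Eif5al3-ps, the only other row whose symbol begins with Eif5a, lies on GRCm38 chromosome 5 from 90132173 to 90133304 and may share reads with Eif5a. It had 2.08, 2.32 and 4.29 FPKM in SKO replicates 1, 2 and 3, against 14.1, 16.3 and 23.8 FPKM in wild-type replicates 1, 2 and 3. The groups did not overlap, as in 4.78% of tested rows on the lower side. Its log2 fold change of -2.30 did not pass the test (limma adjusted p = 0.0756), and it passed in 5 of 17 alternative settings. Both were lower in every SKO library than in any wild-type library, by different factors. The density of Eif5al3-ps was 1.13, 1.20 and 1.43 times that of Eif5a in SKO replicates 1, 2 and 3, and 0.412, 0.334 and 0.384 times in wild-type replicates 1, 2 and 3 (two-sided exact permutation p = 0.1, the smallest possible). No source used here says how reads that match both were assigned.

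Eif5a2, the paralogue, stayed at a low density in both genotypes. The gene lies on GRCm38 chromosome 3 from 28781032 to 28798846 (identifier 208691). It had 0.506, 0.672 and 0.778 FPKM in SKO replicates 1, 2 and 3, against 0.334, 0.970 and 0.654 FPKM in wild-type replicates 1, 2 and 3. The SKO values lay within the range of the wild-type values. The means were 0.652 ± 0.137 FPKM in SKO and 0.652 ± 0.318 FPKM in wild type (SD, n = 3 each). With a mean under 1 FPKM it did not enter the test, and its log2(FPKM + 1) values gave p = 0.9 in a two-sided exact permutation test. When low rows were kept, its log2 fold change was 0.01 with a 95% interval from -0.55 to 0.58 (limma adjusted p = 0.994), so a rise of more than 1.497 times on the FPKM + 1 scale lay outside that interval. For a gene this low, that bound stands for a larger rise in FPKM itself. The number of reads behind these low values is unknown. Its place among protein-coding genes was low in every library, above 9.73% to 16.9% of rows in SKO and above 5.78% to 24.6% in wild type.

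The balance of the 2 paralogues differed between the genotypes. Eif5a2 held 21.6%, 25.8% and 20.6% of the summed Eif5a and Eif5a2 density in SKO replicates 1, 2 and 3, against 0.965%, 1.95% and 1.04% in wild-type replicates 1, 2 and 3. On the log2(FPKM + 1) scale the ratio of Eif5a2 to Eif5a was higher by 3.91 in SKO (two-sided exact permutation p = 0.1). The summed density was nevertheless 2.91 ± 0.760 FPKM in SKO and 49.0 ± 14.0 FPKM in wild type (SD, n = 3 each). The SKO mean of the sum was 5.94% of the wild-type mean, with groups that did not overlap (two-sided exact permutation p = 0.1).

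**Figure D3:**
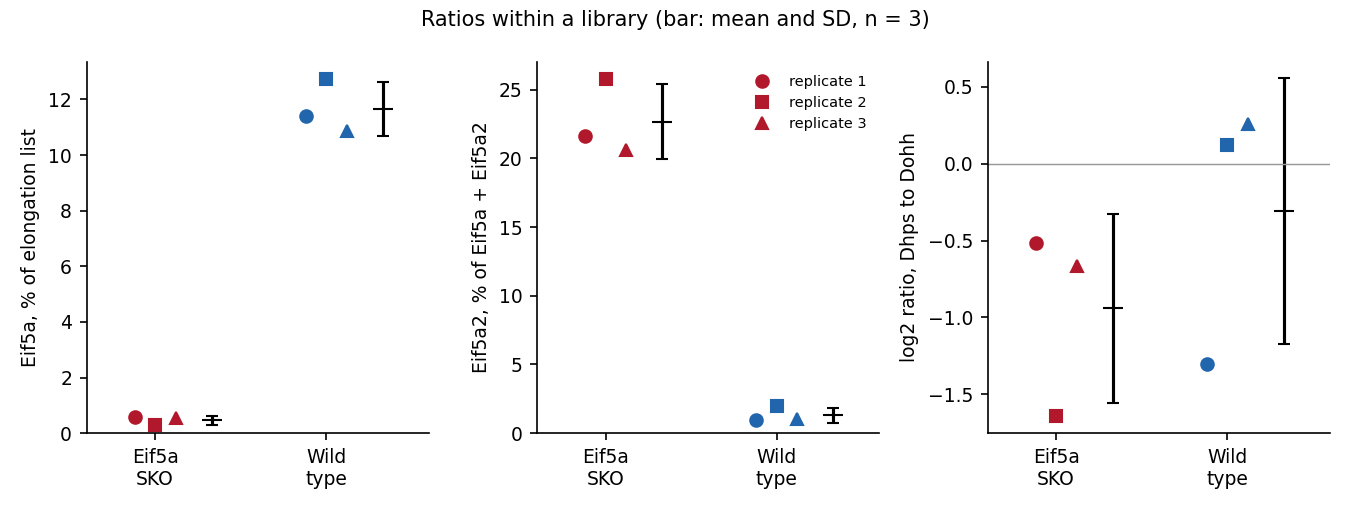
Ratios within a library in Eif5a SKO and wild type: Eif5a as a percentage of the summed elongation list (left), Eif5a2 as a percentage of the Eif5a plus Eif5a2 density (middle), and the log2 ratio of Dhps to Dohh (right). Symbols are replicates 1, 2 and 3 and bars the mean with its SD (n = 3); the groups are apart in the left and middle plots and overlap in the right one.

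Dhps, which carries out the spermidine-dependent step, did not differ beyond the spread between libraries. The gene lies on GRCm38 chromosome 8 from 85071486 to 85075162 (identifier 330817). Its density was 4.76, 6.03 and 4.19 FPKM in SKO replicates 1, 2 and 3, against 3.06, 3.52 and 6.90 FPKM in wild-type replicates 1, 2 and 3. All SKO values lay within the wild-type range. The means were 4.99 ± 0.944 FPKM in SKO and 4.49 ± 2.10 FPKM in wild type (SD, n = 3 each). Its log2 fold change was 0.18 (SE 0.37, 95% interval -0.66 to 1.02, limma adjusted p = 0.906). The interval runs from 0.634 to 2.02 times on the FPKM + 1 scale, so changes inside it are not shown to be absent. The sign is not settled, since it was slightly negative with libraries scaled to equal sums over protein-coding rows and without wild-type replicate 1.

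Dohh, which completes the modification, was the most variable of the 4 genes in SKO. The gene lies on GRCm38 chromosome 10 from 81384434 to 81388352 (identifier 102115). Its density was 7.23, 21.0 and 7.23 FPKM in SKO replicates 1, 2 and 3, against 9.03, 3.15 and 5.62 FPKM in wild-type replicates 1, 2 and 3. SKO replicate 2 stood apart, and the other SKO libraries lay inside the wild-type range. The means were 11.8 ± 7.92 FPKM in SKO and 5.93 ± 2.95 FPKM in wild type (SD, n = 3 each). The log2 fold change was 0.81 (SE 0.50, 95% interval -0.31 to 1.93) and did not pass the test (limma adjusted p = 0.596). Without SKO replicate 2 it was 0.34 (limma adjusted p = 0.895), and without wild-type replicate 2 it was 0.49. Leaving out any other library gave 0.82 to 1.12. SKO replicate 2 had the lowest relative depth and the largest protein-coding share of the 6. With libraries scaled to equal sums over protein-coding rows Dohh still reached its highest value there, at 14.8 FPKM, against 9.68 and 6.62 FPKM in SKO replicates 1 and 3 and 3.58 to 13.1 FPKM in wild-type libraries.

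The balance of the 2 enzymes varied between libraries of each genotype. Dohh density was 1.52, 3.47 and 1.73 times that of Dhps in SKO replicates 1, 2 and 3, against 2.95, 0.896 and 0.814 times in wild-type replicates 1, 2 and 3. The log2 ratio of Dhps to Dohh averaged -0.94 ± 0.61 in SKO and -0.31 ± 0.86 in wild type (SD, n = 3 each, two-sided exact permutation p = 0.4). The difference of -0.63 (SKO minus wild type) was -1.13 without wild-type replicate 1, -0.42 and -0.35 without wild-type replicates 2 and 3, and -0.28 without SKO replicate 2. Relative to their substrate the enzymes stood higher in SKO. Dhps had 2.59, 3.12 and 1.40 times the density of Eif5a in SKO replicates 1, 2 and 3, against 0.0895, 0.0721 and 0.111 times in wild-type replicates 1, 2 and 3. Dohh had 2.42 to 10.8 times the density of Eif5a in SKO libraries and 0.0646 to 0.264 times in wild-type libraries. Both ratios had groups that did not overlap (two-sided exact permutation p = 0.1 for each log2 ratio), and the Eif5a value is in the denominator of each.

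The order of the 4 genes by density differed between the genotypes. In SKO it was Dohh, Dhps, Eif5a and Eif5a2, and the values of neighbouring genes did not overlap over the 3 libraries. In wild type it was Eif5a, Dohh, Dhps and Eif5a2. There Dohh and Dhps overlapped, while Eif5a lay above both and Eif5a2 below both in every library.

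**Figure D4:**
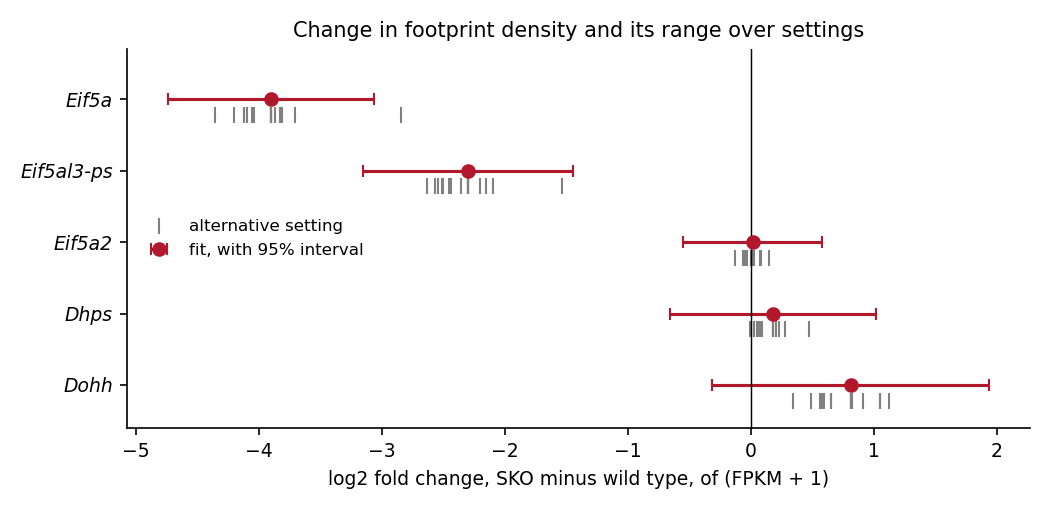
Log2 fold change of FPKM + 1, SKO minus wild type (horizontal axis), for the 4 genes and the pseudogene Eif5al3-ps; points are the limma estimates with 95% intervals (for Eif5a2 from the fit that keeps low rows) and grey ticks the values under other settings. The Eif5a interval, -4.74 to -3.06, lies far from 0, while those of Eif5a2, Dhps and Dohh span it.

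Genes around the hypusine pathway were counted in 4 lists, and 0 of their 33 tested members passed the test (limma), where 0.128% of all tested rows did. At an unadjusted p under 0.05 there were 2, Oaz2 and Oaz3, where 11.0% of all tested rows lay under it. The spermidine list holds the enzymes and regulators that make, restrain or break down the polyamine used by Dhps. The median log2 fold change over its 11 tested members was 0.37, against 0.13 over all tested rows, and 3 members had SKO values above all wild-type values, against 10.9% of all tested rows. The 3 were the antizyme genes Oaz2 and Oaz3, whose products restrain ornithine decarboxylase, and the antizyme inhibitor gene Azin2. Oaz3, the antizyme of spermatids, had 14.9, 21.2 and 24.6 FPKM in SKO replicates 1, 2 and 3, against 5.94, 4.82 and 11.5 FPKM in wild-type replicates 1, 2 and 3 (log2 fold change 1.39, limma adjusted p = 0.275). Azin1 and Oaz3 had the highest means of that list over the 6 libraries, although in wild type alone Oaz1, at 7.92 FPKM, lay above Oaz3, at 7.42 FPKM. Azin1 stood at 31.4 ± 7.37 FPKM in SKO and 21.0 ± 3.51 FPKM in wild type (SD, n = 3 each, limma adjusted p = 0.628). Odc1, which encodes the ornithine decarboxylase at the head of polyamine synthesis, had 9.28 ± 4.44 FPKM in SKO and 7.19 ± 0.950 FPKM in wild type (SD, n = 3 each).

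The median log2 fold change of the 12 tested genes of the elongation list was 0.03, and 0 of the 12 had groups that did not overlap, against 15.7% of all tested rows. Its densest member was Eef1a1, which delivers tRNAs, with 307 ± 121 FPKM in SKO and 194 ± 59.7 FPKM in wild type (SD, n = 3 each, limma adjusted p = 0.677). The second was Eef1d, an exchange factor subunit gene, with 56.2 ± 15.4 FPKM in SKO and 57.2 ± 16.2 FPKM in wild type (SD, n = 3 each). Gspt1 was the only member called in any setting, lower in SKO with libraries scaled to equal sums over protein-coding rows (limma adjusted p = 0.0465). That setting called the most rows, 202 of 15578 tested rows lower and 315 higher. Its deposited densities were 22.4, 41.9 and 35.2 FPKM in SKO replicates 1, 2 and 3, against 37.8, 41.4 and 76.3 FPKM in wild-type replicates 1, 2 and 3, which overlap.

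Of the genes that handle EIF5A itself, Xpo4, the exportin known to carry EIF5A out of the nucleus, had 4.76, 7.95 and 4.03 FPKM in SKO replicates 1, 2 and 3, against 2.92, 3.58 and 3.93 FPKM in wild-type replicates 1, 2 and 3. The groups did not overlap, as in 10.9% of all tested rows on the higher side. Xpo4 did not pass the test (log2 fold change 0.52, limma adjusted p = 0.628). Kat2b and Sirt2, which encode an acetyltransferase and a deacetylase reported to act on EIF5A in human cells, stood at 14.0 ± 5.75 and 9.88 ± 4.12 FPKM in SKO, against 15.1 ± 5.61 and 11.3 ± 6.55 FPKM in wild type (SD, n = 3 each). Diphthamide, the modified histidine of the elongation factor eEF2, is built by an unrelated set of enzymes. Their 7 genes had a median log2 fold change of -0.07. The densest were Dph3, at 8.06 ± 3.47 FPKM in SKO and 5.82 ± 2.06 FPKM in wild type, and Dph6, at 7.05 ± 8.89 FPKM in SKO and 2.86 ± 0.0940 FPKM in wild type (SD, n = 3 each). Dph1, which takes part in the opening step and is named for its groups that do not overlap, had 1.48, 2.28 and 1.65 FPKM in SKO replicates 1, 2 and 3, against 3.44, 3.04 and 3.76 FPKM in wild-type replicates 1, 2 and 3 (log2 fold change -0.66, limma adjusted p = 0.487). No other diphthamide gene had such groups, which held for 4.78% of all tested rows on the lower side.

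The named protein-coding genes closest to each member were found by the root mean square difference between log2(FPKM + 1) profiles over the 6 libraries, each profile centred on its own mean. For Eif5a they were Samd4b, Baz2b and Cabcoco1, at 0.89, 0.95 and 0.98 log2 units, where the median over 4674 genes was 2.08. Their densities were 3.03 ± 1.06, 6.72 ± 1.14 and 29.9 ± 10.1 FPKM in SKO, against 29.9 ± 12.9, 30.9 ± 3.58 and 126 ± 46.1 FPKM in wild type (SD, n = 3 each). None of them passed the test (limma adjusted p = 0.0579, 0.0775 and 0.161). For Dhps the nearest were Sympk, Cbll1 and Mrps9, at 0.06 to 0.09 log2 units, where the median was 0.45. For Eif5a2 they were Tnrc18, Agbl3 and Pacsin2, at 0.06 to 0.08, where the median was 0.46. Eif5a2 lies under 1 FPKM, where adding 1 flattens its profile, so these small differences do not show likeness in FPKM itself. For Dohh the nearest were Tmem147, Ift80 and Setd3, at 0.18 to 0.24, where the median was 0.76. These are likenesses of profile over 6 libraries that share depth and scaling.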

How the data were processed

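The labels' protocols describe lysis with cycloheximide, RNase I digestion, a sucrose cushion, gel selection of protected fragments and a small RNA kit. The deposited values are FPKM per gene symbol and library, made by the authors, without counts. The submitters' processing notes name mm10 as the build and, as tools, Cufflinks, STAR, Bowtie2 and cutadapt, without roles. Columns headed cKO were taken as the SKO samples of the same replicate number. Of 2907 low rows 25.4% stepped in whole reads within 2%, too few to recover counts. Symbols and coordinates come from a RefSeq table of GRCm38 (19305 rows matched by symbol, 81 by synonym, 3384 unmatched).

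The 15578 rows averaging 1 FPKM or more entered limma 3.58.1 (R 4.3.3) on log2(FPKM + 1), with a trend in eBayes, two-sided, Benjamini-Hochberg over all tested rows, threshold 0.05. Such fold changes understate the change of low genes. Exact permutation tests used scipy 1.17.1. On simulated data over 15578 rows, 3 libraries a group, 87% of changes of 4 log2 units and 29% of changes of 2 were recovered. There were 4 false calls. The simulated noise was normal and independent between rows and libraries. It held no differences in scaling or composition between libraries, so these shares may not hold for the real ones. Members and lists were chosen with earlier results of these data known. Named genes are the 4 members, rows that begin with Eif5a, the 3 nearest profiles of each member among protein-coding rows of at least 5 FPKM, and per list the called members or else the 2 densest; others were named after their values were seen. Alternatives were pseudocounts of 0.1 and 5, other filters, 4 scalings of the libraries, other eBayes options, a replicate block, and 1 library left out at a time. List genes that the table used here does not hold were not analysed here.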

Additional observations from a re-analysis of the deposited data

How the results depend on the processing

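Eif5a fell past the threshold in all 17 alternative settings (log2 fold change -4.35 to -2.85, limma adjusted p up to 0.0369), and its mean in SKO stayed a few percent of wild type under each scaling (ratio 0.0405 to 0.0427). Dohh did not pass in any of 17 and Dhps in any of 16, and Dhps reversed to -0.0017 with equal sums over protein-coding rows and -0.0069 without wild-type replicate 1. With 1 library left out Dohh ran from 0.34 to 1.12, Dhps from -0.0069 to 0.47 and Eif5a2 from -0.13 to 0.15. The number of called rows, 20, was 4 with a pseudocount of 5, 5 with no filter on low values, 86 with a mean of at least 5 FPKM, 159 with TMM-type scaling, 449 with quantile normalization, 517 with equal sums over protein-coding rows, 63 with robust estimation, 5 with the replicate block, and 4 to 31 with 1 library left out. Of the calls 85.0% were higher in SKO with deposited values, 74.8% with TMM-type scaling, 55.7% with quantile normalization and 60.9% with equal sums over protein-coding rows; the median log2 fold change of all rows was 0.13 with deposited values and 0.003 with TMM-type scaling. The SKO minus wild-type difference in summed Eif5a and Eif5a2 density, -46.1 FPKM, was -68.9 with equal sums (TPM), whose sums are larger by construction. The log2 ratio of Eif5a2 to Eif5a, 3.91, was 4.43 with a pseudocount of 0.1 and 2.85 with a pseudocount of 5, since both are added to a low gene. Deviations of same-numbered libraries correlated at 0.0926, 0.00016 and 0.0243, and 2 of 3 correlated best with their own number. With 3 libraries a group these values cannot settle whether the libraries are paired. No label says that same-numbered libraries belong together, so the numbers were not taken as pairs. With the replicate block Eif5a kept its call (limma adjusted p = 0.0120). Eif5a2 was not fitted with a mean of at least 5 FPKM, nor Dhps, because both lie under it, and the eBayes options do not alter the Eif5a2 value. Read numbers are unknown, which limits Eif5a2, the lowest gene, most.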

Other observations

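SKO replicate 2, the library in which Dohh was highest, also held the highest values of some other pathway genes. Dph6, the gene of the last enzyme of diphthamide synthesis, had 1.46, 17.3 and 2.39 FPKM in SKO replicates 1, 2 and 3, against 2.97, 2.82 and 2.80 FPKM in wild-type replicates 1, 2 and 3. Sms, the spermine synthase gene, had 0.293, 7.72 and 0.951 FPKM in SKO replicates 1, 2 and 3, against 2.44, 0.181 and 0.688 FPKM in wild-type replicates 1, 2 and 3. Neither passed the test (limma adjusted p = 0.850 and 0.818). Both were picked out after their values were seen.

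Srm, the spermidine synthase gene that makes the substrate of Dhps, differed widely between the wild-type libraries. It had 1.85, 1.43 and 3.18 FPKM in SKO replicates 1, 2 and 3, against 6.04, 0.904 and 0 FPKM in wild-type replicates 1, 2 and 3, where it is listed at 0 in the last of these.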
